A study of Mus musculus with 2 samples.

Results

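The genes described here include the toll-like receptors that sense nucleic acids inside endosomes, Tlr3, Tlr7, Tlr8, Tlr9 and Tlr13. The chaperones Unc93b1 and Cnpy3, which help such receptors travel or fold, complete the set. The set was taken by name from the 15605 genes listed in the data and holds 7 genes, 5 receptors and 2 chaperones. All 7 were listed in both libraries. RNA was sequenced from peritoneal macrophages, the phagocytes of the abdominal cavity, after 4 days of co-culture with the mouse mammary carcinoma line EO771. The mice were C57BL/6 and 6 to 8 weeks old. The study had 1 wild type library and 1 lgmn-/- library, which lacks Lgmn, the gene of the lysosomal cysteine protease legumain. Both groups had the carcinoma co-culture, and no library without it was analysed here. How many mice gave each library, how Lgmn was disrupted and whether a membrane kept the cells apart are not given in the sources used here. Because each genotype is a single library, differences could not be checked in replicates and are given without p-values.

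Endosomal toll-like receptors are made in the endoplasmic reticulum, where Cnpy3, with the chaperone gp96, helps several of them, though not Tlr3, to fold. Unc93b1, a membrane protein with many transmembrane segments, then binds them and escorts them to endosomes and lysosomes. There their ectodomains are cut by cathepsins and, for some receptors, by legumain, and the cut receptors signal when they meet nucleic acid. Tlr3 binds double-stranded RNA, and Tlr7 and the human form of Tlr8 bind single-stranded RNA and its breakdown products. Tlr9 binds DNA rich in unmethylated CpG, and Tlr13, which mice have and humans lack, binds a conserved stretch of bacterial ribosomal RNA. Only RNA levels were measured here, so neither the amount nor the cleavage of the receptor proteins is known.

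RefSeq promoters of GRCm38.p6, the same assembly as the authors' mm10, were found for 5 of the 7 genes by Entrez identifier. Each window is the 250 bases before the transcript start. That of Tlr8 is shown because Tlr8 was the receptor past 2-fold, that of Tlr13 because Tlr13 was the most abundant receptor, and that of Cnpy3 because its level was about the same in both libraries. They are written 5′ to 3′ on the gene's strand, at chrX:167264330-167264579 on the minus strand for Tlr8, chrX:106143025-106143203 on the plus strand for Tlr13 and chr17:46752215-46752464 on the minus strand for Cnpy3. The Tlr13 window is cut to the 179 bases that hold no GENCODE exon. Capitals mark matches on either strand to GAGGAA, a core of sites for the macrophage factor PU.1, or to AANNGAAA, a core of sites for interferon regulatory factors.
Tlr8: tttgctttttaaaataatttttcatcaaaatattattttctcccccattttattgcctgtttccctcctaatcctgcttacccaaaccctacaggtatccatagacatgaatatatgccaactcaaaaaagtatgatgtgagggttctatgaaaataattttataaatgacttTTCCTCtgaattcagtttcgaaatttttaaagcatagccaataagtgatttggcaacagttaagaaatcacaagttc
Tlr13: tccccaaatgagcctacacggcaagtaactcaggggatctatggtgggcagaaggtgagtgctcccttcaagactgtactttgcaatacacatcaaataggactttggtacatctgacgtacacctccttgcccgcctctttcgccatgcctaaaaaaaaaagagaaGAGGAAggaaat
Cnpy3: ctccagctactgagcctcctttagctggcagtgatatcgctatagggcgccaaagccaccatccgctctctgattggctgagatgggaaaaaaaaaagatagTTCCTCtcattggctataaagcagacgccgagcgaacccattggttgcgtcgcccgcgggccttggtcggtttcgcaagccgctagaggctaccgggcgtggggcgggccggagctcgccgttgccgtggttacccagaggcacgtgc
The capitals are matches to GAGGAA or its reverse complement TTCCTC, and no printed stretch matched AANNGAAA. Of all 32851 promoter windows of this length, 23.3% held GAGGAA and 21.3% AANNGAAA on either strand. The GAGGAA match was thus present in Cnpy3, whose level hardly differed, as well as in the receptors Tlr8 and Tlr13, and also in the window of Tlr9. The window of Tlr3 held 1 match to AANNGAAA and none to GAGGAA. GENCODE places exons in 178 of the 250 bases of the Tlr3 window, so it is not printed. The GC content of the whole windows was 31.2% for Tlr8, 44.4% for Tlr13 and 59.6% for Cnpy3, against a median of 52.4% over all windows. A match is a description of these letters and shows no binding.

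The libraries held 11885784 and 11740202 estimated counts. Lgmn (Entrez gene 19141) had an FPKM, the deposited level scaled for transcript length and sequencing depth, of 1048 in wild type and 19.2 in knockout macrophages, and was 64.3-fold lower there (95% counting interval 58.6 to 71.1), so the order matched the genotype labels. Ratios here are knockout over wild type after TMM scaling of the counts, and their intervals cover counting error only. A minimum of 50 counts in either library left 9499 genes, of which 575 (6.05%) had at least 2 times the level in the knockout library and 165 (1.74%) at most 0.5 times, and the median log2 ratio was 0.00. With library totals in place of TMM factors 1036 genes were higher and 107 lower by this measure, and the median log2 ratio moved up by 0.24. Ratios followed transcript length, with a median of -0.37 in the tenth of genes with the shortest transcripts and 0.77 in the tenth with the longest. Length-adjusted values, with this trend subtracted, are therefore given beside the log2 ratios of the genes named, and after adjustment 203 genes (2.14%) lay above and 180 (1.89%) below these 2-fold limits.

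In bulk RNA, fewer cells of a type and less RNA per cell cannot be told apart. All 4 receptors with enough counts had log2 ratios above 0, from 1.49-fold to 2.32-fold, while the chaperones lay near equality at 1.09-fold and 0.92-fold. Tlr8 alone passed 2-fold, so 1 of the 6 genes tested was at least 2-fold higher and 0 were lower, beside 6.05% and 1.74% of all genes. At 1.5-fold, 3 of the 6 were higher, against 16.4% of all genes. The median log2 ratio of the 6 genes was 0.59, and 0.37 after length adjustment, beside 0.00 and -0.01 over all genes tested. After adjustment none of the 6 passed 2-fold, and all 6 had log2 ratios above 0, as did 48.9% of all genes. Without adjustment 5 of the 6 were above 0, against 49.9% of all genes, and after it the count at 1.5-fold was 1 of 6, Tlr8, against 7.74%.

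**Figure D1:**
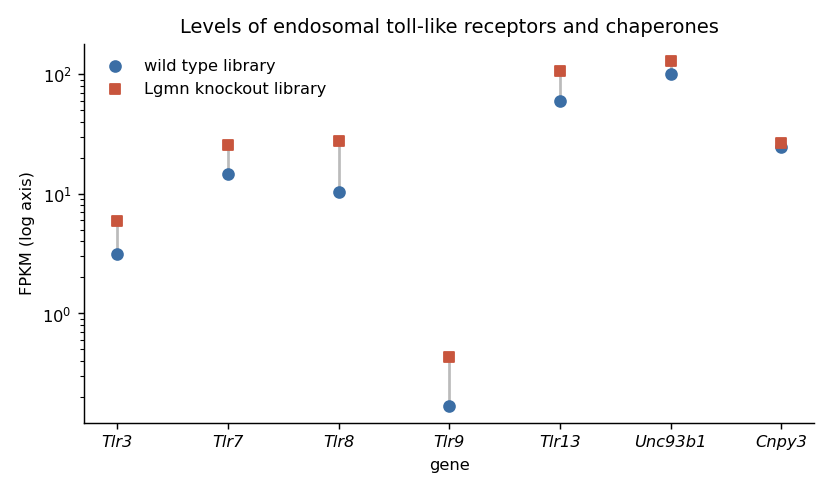
FPKM as deposited (vertical log axis) of the 5 endosomal toll-like receptors and 2 chaperones in the wild type library (circles) and the Lgmn knockout library (squares), with a line joining the libraries for each gene. Each point is 1 library, and the knockout point lies above the wild type point for all 7 genes, by the widest gap in Tlr9 and Tlr8 and the narrowest in Cnpy3. FPKM ratios lay above TMM-scaled ratios by a median of 0.24 in log2 over all genes tested. With TMM scaling Unc93b1 was at 1.09-fold and Cnpy3 at 0.92-fold.

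Tlr8 (Entrez gene 170744, chromosome X, 167241123 to 167264329), whose human form binds single-stranded RNA and its breakdown products, had 601 estimated counts in wild type and 1627 in knockout macrophages, or 10.4 and 27.5 as FPKM. The knockout library was the higher, by 2.32-fold (2.11 to 2.55). The log2 ratio of 1.21 was above those of 96.3% of the genes tested. It was 0.83 after length adjustment, or 1.78-fold, again above 96.3% of genes. Of 818 other genes whose transcript length was within 10% of that of Tlr8, 4.16% had a ratio as high or higher. Tlr8 thus stood about as high among genes of like length as among all genes, although its length-adjusted value lay below 2-fold.

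Tlr7 (Entrez gene 170743, chromosome X, 167303380 to 167330574), which senses single-stranded RNA and lies next to Tlr8, had 673 counts in wild type and 1167 in knockout macrophages, or 14.5 and 25.6 as FPKM. Its ratio was 1.49-fold (1.35 to 1.64), below the 2-fold threshold. The log2 ratio of 0.57 became 0.37 after length adjustment. Among 1033 genes of like length, 19.7% had a ratio as high or higher.

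Tlr13 (Entrez gene 279572, chromosome X, 106143275 to 106160493), the sensor of bacterial ribosomal RNA, was the most abundant of the receptors in both libraries. It had 2899 counts in wild type and 5115 in knockout macrophages, or 59.6 and 107 as FPKM. The ratio was 1.51-fold (1.45 to 1.59). The log2 ratio was 0.60, and 0.36 once the length trend was subtracted, and 19.9% of 1021 genes of like length reached it.

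Tlr3 (Entrez gene 142980, chromosome 8, 45395665 to 45411075), which senses double-stranded RNA and signals through Ticam1 alone, had 165 counts in wild type and 306 in knockout macrophages, or 3.14 and 5.91 as FPKM. The ratio was 1.59-fold (1.31 to 1.93). The log2 ratio was 0.67, and 0.38 once the length trend was subtracted, and 17.7% of 986 genes of like length reached it. The intervals of Tlr3, Tlr7 and Tlr13 overlap, so the sizes of these 3 ratios cannot be ordered.

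Tlr9 (Entrez gene 81897, chromosome 9, 106222598 to 106226876), the CpG DNA sensor, was barely present, with 7 counts in wild type and 18 in knockout macrophages, or 0.17 and 0.43 as FPKM. It fell under the minimum of 50 counts and was not tested. The ratio of 2.07-fold had an interval of 0.88 to 6.25, so a difference was not detectable at this depth. Of the genes listed in the wild type library, 16.2% had a lower FPKM than Tlr9, and of those in the knockout library 23.3%.

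Unc93b1 (Entrez gene 54445, chromosome 19, 3935158 to 3949340), the trafficking chaperone of all these receptors, had the highest level of the set. It had 2732 counts in wild type and 3462 in knockout macrophages, or 99.7 and 128 as FPKM. The ratio was 1.09-fold (1.03 to 1.14), or 0.12 in log2, beside 0.21 with the length trend subtracted and 0.36 with library totals. Unc93b1 did not approach the 2-fold threshold under any of these.

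Cnpy3 (Entrez gene 72029, chromosome 17, 46735711 to 46752713), the folding chaperone also known as PRAT4A, had 558 counts in wild type and 600 in knockout macrophages, or 24.5 and 26.7 as FPKM. The ratio was 0.92-fold (0.82 to 1.04), which includes equality. The log2 ratio was -0.12, but 0.04 once the length trend was subtracted, and 0.12 both with library totals and with FPKM, so Cnpy3 had no stable direction.

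**Figure D2:**
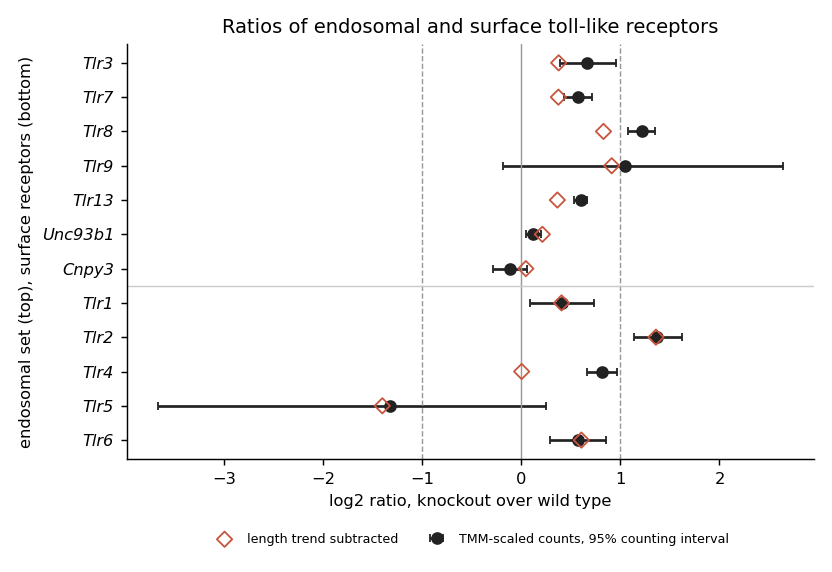
Log2 ratio of knockout over wild type (horizontal axis) for the 7 endosomal genes and the 5 surface toll-like receptors, as TMM-scaled counts with 95% counting intervals (filled circles) and after subtraction of the length trend (open diamonds); dashed lines mark 2-fold. Tlr8 lies past the 2-fold line at 1.21 and moves inside it at 0.83 after adjustment, Tlr4 moves from 0.81 to 0.00, and the intervals of Tlr9 and Tlr5 are wide, at 7 and 18 and at 10 and 4 counts.

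Per transcript length, the order of FPKM in the wild type library was Unc93b1, Tlr13, Cnpy3, Tlr7, Tlr8, Tlr3 and Tlr9. In the knockout library Tlr8 moved above Cnpy3 and Tlr7, and the other places were as before. The FPKM of Tlr8, Cnpy3 and Tlr7 in the knockout library were 27.5, 26.7 and 25.6, close enough that, with 1 library, their order is not established. In the wild type library the same genes stood at 10.4, 24.5 and 14.5.

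Ratios between genes of the same library do not depend on how the libraries are scaled. The FPKM of Tlr8 was 0.71 times that of Tlr7 in wild type and 1.08 times in knockout macrophages. In counts, the Tlr8 to Tlr7 ratio was 1.56-fold higher in the knockout library (1.37 to 1.78), and 1.37-fold after length adjustment. Against Tlr13 the change for Tlr8 was 1.53-fold (1.38 to 1.70) and against Tlr3 it was 1.46-fold (1.18 to 1.80). The double ratio of Tlr7 to Tlr13 was 0.98 (0.88 to 1.09) and that of Tlr3 to Tlr13 was 1.05 (0.87 to 1.28), both with intervals that include 1. The intervals of all 3 comparisons of Tlr8 with another receptor exclude 1.

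Each of the 4 receptors tested had a higher ratio than either chaperone, with 1 library per genotype. The summed FPKM of the 5 receptors was 87.8 in wild type and 166 in knockout macrophages. Their summed counts, most of them from Tlr13, had a ratio of 1.62-fold (1.57 to 1.69) before length adjustment. The FPKM of Unc93b1 was 1.14 times the receptor sum in wild type and 0.77 times in knockout macrophages. Against Unc93b1 the double ratio was 1.46 for Tlr3 (1.203 to 1.78), 1.37 for Tlr7 (1.23 to 1.52), 2.14 for Tlr8 (1.92 to 2.38) and 1.39 for Tlr13 (1.30 to 1.49). Part of this gap runs with length, since the receptors tested have transcripts of 3820 to 4860 bases and Unc93b1 and Cnpy3 of 2277 and 1902 bases. After length adjustment the double ratios against Unc93b1 were 1.12 for Tlr3, 1.12 for Tlr7, 1.54 for Tlr8 and 1.11 for Tlr13, and those against Cnpy3 were 1.26, 1.26, 1.72 and 1.25 in the same order.

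**Figure D3:**
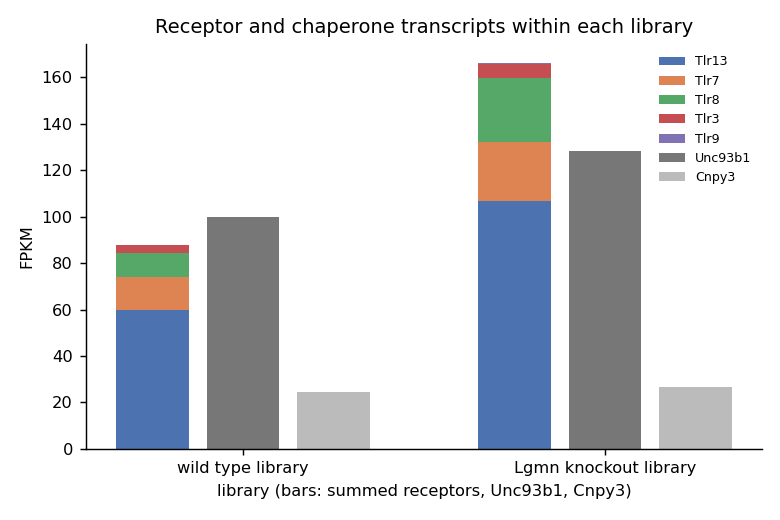
FPKM as deposited (vertical axis, from 0) within each library, with the 5 receptors stacked in the left bar of each group and Unc93b1 and Cnpy3 in the middle and right bars. The stacked receptors reach 87.8, below Unc93b1 at 99.7, in wild type and 166, above Unc93b1 at 128, in the knockout library.

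Tlr13 made up 67.9% of the summed receptor FPKM in wild type and 64.2% in knockout macrophages. Tlr7 made up 16.6% and 15.4%. The share of Tlr8 was 11.8% and 16.6%, while Tlr3 held 3.58% and 3.56% and Tlr9 0.19% and 0.26%. Tlr8 thus held a larger share and Tlr13 and Tlr7 smaller shares in the knockout library, and Tlr13 led in both.

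**Figure D4:**
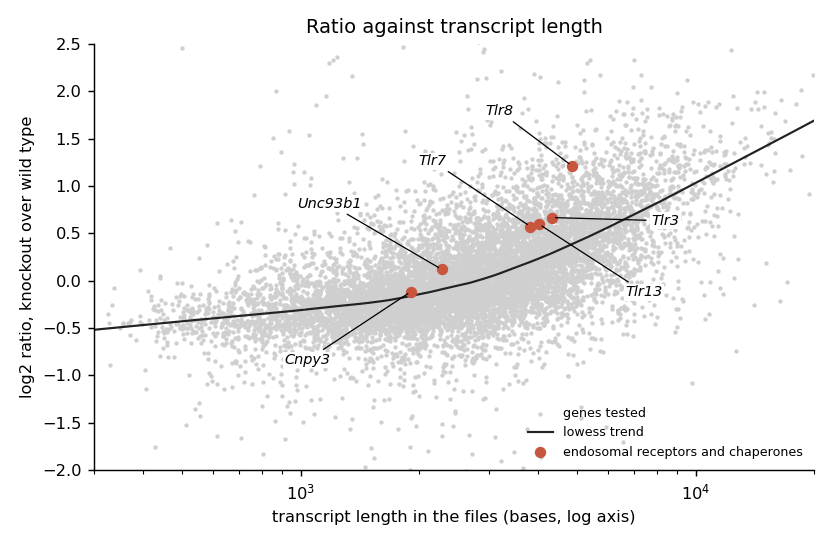
Log2 ratio of knockout over wild type (vertical axis) against transcript length in bases (horizontal log axis) for the genes tested (grey), with the lowess trend (line) and the 6 endosomal genes tested (red). The 4 receptors lie among long transcripts and above the trend, Tlr8 farthest, and Unc93b1 and Cnpy3 lie among shorter transcripts, while 61 genes fall outside the plotted ranges.

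Among partners in assembly and trafficking, 1 of 25 tested (4.0%, against 6.05% of all genes) was at least 2-fold higher and 0 were lower, and the median log2 ratio was -0.02. It was -0.18 after length adjustment and 0.21 with library totals, so the list had no stable direction. Hsp90b1, which encodes gp96, had an FPKM of 118 in wild type and 139 in knockout macrophages and a log2 ratio of -0.01, or 0.00 after length adjustment. The gene past 2-fold was Wdfy1, an adaptor that links Tlr3 and Tlr4 to Ticam1, with FPKM of 3.53 and 15.2 and a ratio of 5.43-fold (4.43 to 6.84), or 5.35-fold after length adjustment. Its deposited transcript length also differed, at 2341 and 3486 bases. Ap3d1, a subunit of the AP-3 complex that sorts cargo to lysosome-related compartments, had FPKM of 7.07 and 14.1 and a log2 ratio of 0.75, which was 0.39 after length adjustment. Slc15a4, a lysosomal histidine transporter required for Tlr7 and Tlr9 signalling, had FPKM of 12.04 and 10.13 and a log2 ratio of -0.49, and -0.47 adjusted. Its lysosomal partner Tasl had FPKM of 4.00 and 4.69 and a log2 ratio of -0.01, which was -0.21 adjusted and 0.23 with library totals. Tlr11 and Tlr12, mouse receptors for profilin that also use Unc93b1, had at most 7 counts in either library.

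The list of endolysosomal proteases holds those that cut these receptors, and also a thiol reductase gene. It had 3 of 15 log2 ratios above 0, against 49.9% of all genes, and 3 of 15 after length adjustment, against 48.9%. Of the 15 tested, 0 were at least 2-fold higher and 1, Lgmn, was lower, beside 6.05% and 1.74% of all genes. Lgmn is the gene disrupted, so its call was set by the genotype. The median log2 ratio of the list, Lgmn included, was -0.40, with -0.27 after length adjustment and -0.16 with library totals. Ctsl, which encodes cathepsin L, had FPKM of 3941 and 2472 and a log2 ratio of -0.91, which passed 2-fold at -1.06 after adjustment. Ctsb, for cathepsin B, had FPKM of 2750 and 2149 and a log2 ratio of -0.60, which was -0.96 adjusted. Ctss, for cathepsin S, had the highest FPKM of these proteases at 12409 and 11760, with a log2 ratio of -0.32 that was -0.07 adjusted.

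Nucleases and carriers trim or deliver the ligands. Of 14 tested, 0 reached 2-fold upward or downward, beside 6.05% and 1.74% of all genes, a count near that background. There were 5 above 0, against 49.9% of all genes. The median log2 ratio was -0.29, and -0.13 after length adjustment. Pld3, a lysosomal exonuclease that degrades Tlr9 and Tlr7 ligands, had FPKM of 628 and 546 and a log2 ratio of -0.44, and -0.36 adjusted. Dnase2a, the lysosomal endonuclease that digests engulfed DNA, had FPKM of 82.1 and 73.3 and a log2 ratio of -0.40, and -0.19 adjusted. Ang and Rnase4, secreted ribonucleases, had the largest differences, with log2 ratios of -0.76 and -0.71 that were -0.41 and -0.49 adjusted, but their transcription units overlap and reads can be divided between them only by estimate.

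Of 30 adaptor and signalling genes tested, 1 (3.33%, against 6.05% of all genes) passed 2-fold upward and 0 downward. There were 24 above 0, against 49.9% of all genes, with a median log2 ratio of 0.25. After length adjustment the median was 0.07 and 19 were above 0, against 48.9%. The gene past 2-fold was Irf1, an interferon-induced transcription factor, with FPKM of 69.6 and 212 and a ratio of 2.57-fold (2.44 to 2.72), or 2.79-fold adjusted. Ikbke, a kinase that phosphorylates interferon regulatory factors, had FPKM of 6.89 and 14.1 and a log2 ratio of 0.79, and 0.71 adjusted. Myd88, the adaptor of all these receptors but Tlr3, had FPKM of 24.7 and 31.9 and a log2 ratio of 0.13 with an interval that includes equality, 0.98-fold to 1.22-fold, and was at 0.28 adjusted. Ticam1, the adaptor of Tlr3, had FPKM of 10.8 and 9.45 and a log2 ratio of -0.44, and -0.45 adjusted. Irf7, a main driver of type I interferon after Tlr7 and Tlr9 signalling, had FPKM of 540 and 575 and a log2 ratio of -0.15, which was 0.02 after length adjustment and 0.08 with library totals.

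**Figure D5:**
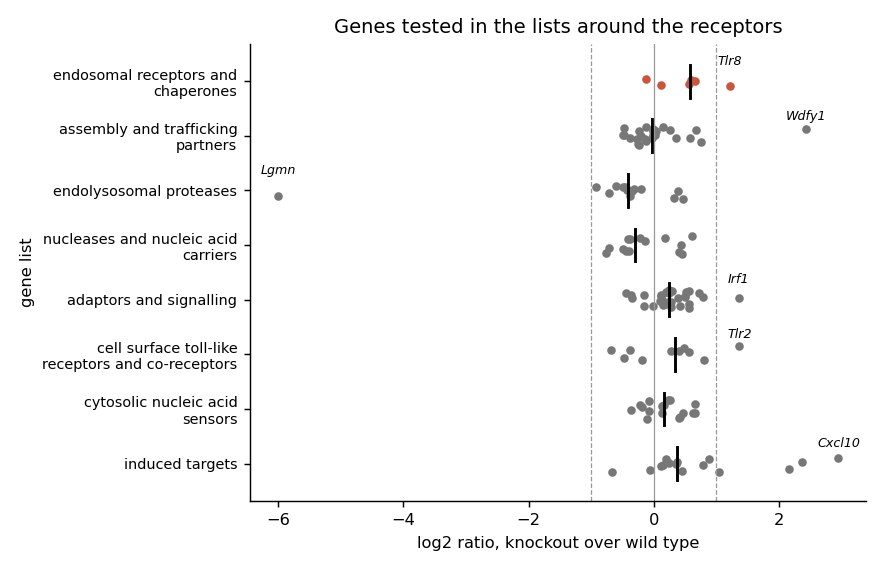
Log2 ratio of knockout over wild type (horizontal axis) for each gene tested (points) in the endosomal set (red) and in 7 lists around it (grey), with black bars for the medians and dashed lines at 2-fold. The median of the endosomal set is 0.59, those of the proteases and nucleases are -0.40 and -0.29, and Lgmn, Wdfy1, Tlr8, Irf1, Tlr2 and Cxcl10 are among the genes past 2-fold.

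Of 10 surface receptors and co-receptors tested, 6 had log2 ratios above 0, against 49.9% of all genes. Tlr2, the receptor for bacterial lipoproteins, had FPKM of 5.56 and 17.1, a log2 ratio of 1.37 and 1.36 after length adjustment. Tlr4, the receptor for lipopolysaccharide, had FPKM of 5.35 and 11.1 and a log2 ratio of 0.81, which was 0.00 after adjustment, the trend at its transcript length of 7891 bases being 0.81. Tlr1 and Tlr6, which pair with Tlr2, had log2 ratios of 0.41 and 0.57, and 0.40 and 0.61 after adjustment. Tlr5, the flagellin receptor, had 10 and 4 counts and was not tested. Of these 10, 1 (against 6.05% of all genes) passed 2-fold upward and 0 downward, with a median of 0.34, and 0.07 after length adjustment. With 1 library per group, whether endosomal and surface receptors differ in their response was not tested. Among 17 cytosolic nucleic acid sensors, the other route for detecting such ligands, 0 passed 2-fold upward, against 6.05% of all genes, with a median of 0.17 and 0.04 after adjustment. Oas2, an RNA-activated enzyme that makes oligoadenylate, and Eif2ak2, the kinase PKR, had the largest log2 ratios among these at 0.67 and 0.66, and 0.46 and 0.36 adjusted.

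Genes that toll-like receptors induce included several past 2-fold. Of 15 tested, 4 (26.7%, against 6.05% of all genes) passed 2-fold upward and 0 downward, with a median log2 ratio of 0.38. The 4 were the chemokine gene Cxcl10 at 7.75-fold (5.78 to 11.04), the feedback inhibitor Socs1 at 5.16-fold (3.71 to 7.67), the cytokine gene Il1b at 4.46-fold (3.52 to 5.82) and Tnf at 2.06-fold (1.65 to 2.61). After length adjustment 5 passed, against 2.14% of all genes, with a median of 0.45. They were these 4, at 9.46-fold, 6.22-fold, 5.32-fold and 2.38-fold, and Nfkbia, an inhibitor of NF-kappaB, whose ratio of 1.72-fold became 2.004-fold. Of the 15 genes, 13 had log2 ratios above 0, against 49.9% of all genes, and 13 after length adjustment, against 48.9%. The lowest was the prostaglandin synthase gene Ptgs2 at a log2 ratio of -0.67, and -0.98 adjusted. Ifnb1, the interferon gene downstream of Tlr3, Tlr7 and Tlr9, had 1 count in each library. These genes also answer to other stimuli, and which receptor acted was not tested.

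Tlr7, Tlr8 and Tlr13 lie on chromosome X, so the X-linked genes were compared between the libraries as well. Xist, made from the inactive X chromosome, was present in both libraries, with FPKM of 2.15 and 9.30, and the Y-linked genes Ddx3y, Eif2s3y, Kdm5d and Uty were listed in neither. Of 286 X-linked genes tested, 16 (5.59%) passed 2-fold upward and 6 downward, beside 6.05% and 1.74% of all genes, with a median log2 ratio of -0.06, and -0.12 after length adjustment. Tmsb4x and Prps2, which flank the Tlr7 and Tlr8 locus, had log2 ratios of -0.09 and -0.01 (0.15 and 0.23 with library totals), against 0.57 for Tlr7 and 1.21 for Tlr8. After length adjustment Tmsb4x was at 0.29 and Prps2 at -0.19, against 0.37 for Tlr7 and 0.83 for Tlr8, so that Tmsb4x and Tlr7 were close. Atp7a, which lies near Tlr13, had a log2 ratio of 0.68, above the 0.60 of Tlr13, and was at -0.16 adjusted, against 0.36. Pgk1, on the other side of Tlr13, had a log2 ratio of -0.42, and -0.24 adjusted. The median X-linked gene lay at 0.18 with library totals beside 0.24 for all genes. Of 12 X-linked dosage genes tested, 3 were at least 2-fold higher with a median log2 ratio of 0.56, namely Xist at 3.65-fold, its antisense partner Tsix at 2.87-fold and the chromatin remodeller gene Atrx at 2.56-fold, and without strand the reads of Xist and Tsix cannot be told apart. After length adjustment the median was 0.00 and 1 of the 12 passed, Tsix at 2.35-fold, with Xist at 1.21-fold and Atrx at 1.23-fold.

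Markers of the cells that could be present were measured alongside. All 12 macrophage markers were tested, 2 of them past 2-fold upward and 0 downward, beside 6.05% and 1.74% of all genes. Their median log2 ratio was 0.44 and their summed FPKM was 20980 and 20060. They included Mertk, a receptor for dying cells, at 2.35-fold (2.04 to 2.73), or 2.11-fold adjusted. Of the 12 markers 8 were above 0 and 4 below, the lowest of them Cd68, a lysosomal membrane glycoprotein, at a log2 ratio of -0.70, and -0.44 adjusted. Of 9 markers of conventional dendritic cells, whose cross-presenting subset is known for high Tlr3, 8 were listed and 2 tested, with a summed FPKM of 7.59 and 9.49. Clec9a had 13 and 74 counts, 4.63-fold higher (2.69 to 9.60) and 4.37-fold adjusted, and Xcr1 had 6 and 23, while Cadm1 had 192 and 158. Plasmacytoid dendritic cells and B cells are known for high Tlr7 and Tlr9, and of their 8 and 11 markers 1 and 0 could be tested. The plasmacytoid marker tested was Tcf4, with 155 and 318 counts. It was 1.76-fold higher (1.45 to 2.15), with a log2 ratio of 0.81 that was 0.09 adjusted. Siglech, the defining plasmacytoid marker, was listed in neither library. The summed FPKM was 5.31 and 7.17 over the plasmacytoid markers and 2.12 and 3.01 over the B cell markers. The summed FPKM was 165 and 311 over 12 T and NK cell markers, 135.5 and 27.5 over 12 fibroblast markers and 0.90 and 0.85 over 11 epithelial carcinoma markers. Over 8 neutrophil markers it was 83.9 and 108. Nearly all of this came from S100a8 at 83.0 and 106, the 1 tested, with a log2 ratio of 0.12, and 0.59 adjusted. All 9 fibroblast markers tested lay at least 2-fold lower in knockout macrophages, among them Tagln at 7.02-fold and Acta2 at 6.79-fold, with adjusted log2 ratios of -2.59 and -2.72. Of 9 T and NK cell markers tested 4 were at least 2-fold higher, beside 6.05% of all genes. They were Klrd1 at 4.02-fold, Klrb1c at 3.88-fold, Cd3d at 2.06-fold and Lck at 2.02-fold. Adjusted, they were at 5.07-fold, 3.96-fold, 2.46-fold and 2.20-fold, beside 2.14% of all genes past 2-fold. The part of these cells in the receptor ratios was not tested.

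Read sharing between the receptors is small. Of the 50-base stretches in protein-coding GENCODE transcripts of Tlr7, Tlr8, Tlr9, Tlr13, Unc93b1 and Cnpy3, 0 occurred in transcripts of any other gene on either strand. For Tlr3, 2.88% did, all in Gm45542, which overlaps it on the opposite strand and was listed in neither library.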

How the data were processed

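Per the labels' protocols, Trizol was used to harvest the RNA and a BGISEQ-500 instrument to sequence it. For every Entrez gene identifier the authors deposited an estimated count and an FPKM value, per the file headers. The submitters' processing notes list RSEM, HISAT2, Bowtie2 and mm10. What each tool did, its version and whether strand was used are not stated there. Levels of different genes were compared as the authors' FPKM, except in the search for the nearest genes, which used scaled counts. Of 15605 identifiers, 15561 had a symbol in RefSeq for GRCm38.p6.

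Counts were rounded to whole numbers, and TMM factors (0.921 for wild type, 1.09 for knockout) were computed with edgeR 4.0.16. Log2 ratios were taken after adding 1 scaled count. Genes needed 50 counts in the higher library, and a gene was called at 2-fold. The 95% intervals come from the exact Clopper-Pearson limits on the share of a gene's counts that came from the knockout, and for ratios between genes from a normal approximation on the log scale. No molecular identifiers are named for these reads, which may repeat molecules, so both cover counting error only. A lowess curve (span 0.3) of the log2 ratio against log2 length gave the length trend. As alternatives, size factors of DESeq2 1.42.0 replaced TMM, as did library totals, and FPKM with 0.1 added replaced counts, and other count minimums (10, 200, none), other pseudocounts (0.5 and 5) and other thresholds (1.5-fold and 4-fold) were tried.

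The genes, lists and alternatives were chosen with earlier results of these data known. The rule for named genes takes the 7 genes, Lgmn, all surface toll-like receptors, and in each list the genes past 2-fold and the 2 with the largest ratios, and for each of the 7 the gene nearest in ratio and level. Hsp90b1, Slc15a4, Tasl, Tlr11, Tlr12, Ctsb, Ctss, Pld3, Dnase2a, Myd88, Ticam1, Irf7 and Ifnb1 were named outside it. So were Prps2, Tmsb4x, Atp7a, Pgk1, Ptgs2, Nfkbia, Cd68, Xcr1, Cadm1 and Siglech. All were named for their roles, positions or values, after their values were seen. Of the 9 fibroblast markers past 2-fold only the 2 largest are named, and a few genes within this rule are not reported here. The calculation was tested on simulated data with counting error only, where all 100 genes raised and all 100 lowered 3-fold or 4-fold were called among 9305, and 2 of 9105 unchanged genes. The changed genes had a mean of at least 100 counts, and no length trend was simulated. The simulation therefore checks the arithmetic and gives no rate of false calls for these libraries. The software was R 4.3.3 and, under Python 3.11.15, scipy 1.17.1, numpy 2.4.6, statsmodels 0.14.6, pandas 2.3.3 and matplotlib 3.10.9.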

Additional observations from a re-analysis of the deposited data

How the results depend on the processing

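The number of the 7 genes at least 2-fold higher, 1 (Tlr8), was 2 with a minimum of 10 counts or with none, when Tlr9 with its 7 and 18 counts entered, 0 after length adjustment, 3 at a 1.5-fold threshold and 0 at 4-fold. It was 1 under the other alternatives, and 0 genes were lower under any of the 11. The median log2 ratio of 0.59 was 0.82 with library totals, 0.83 with deposited FPKM and 0.37 after length adjustment. Over the alternatives the log2 ratio ranged from 0.83 to 1.45 for Tlr8, 0.37 to 0.81 for Tlr7, 0.36 to 0.84 for Tlr13, 0.38 to 0.90 for Tlr3, 0.12 to 0.36 for Unc93b1 and -0.12 to 0.12 for Cnpy3, the only one of the 7 to change sign. Over all genes, deposited FPKM gave 935 higher and 102 lower, a minimum of 10 counts 926 and 439, of 200 counts 273 and 67, and no minimum 1458 and 1531. No paired analysis was possible because each genotype has 1 library, and none could be left out. Tlr9 is limited by depth.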

Other observations

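The deposited transcript length of Tlr8 was 4784 bases in wild type and 4937 bases in knockout macrophages, and for Tlr7 it was 3824 and 3817. For the other 5 genes it was the same in both.

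The genes outside the lists nearest to 5 of the receptors and chaperones in log2 ratio and log2 mean count, over these 2 libraries, were Plxna1 for Tlr8 (644 and 1755 counts), Rasa3 for Tlr7 (695 and 1180), Sirpa for Tlr13 (2856 and 5115), Ubr2 for Tlr3 (164 and 308) and Dpm2 for Cnpy3 (561 and 600). Transcript length was not matched. It was 9045 bases for Plxna1 against 4860 for Tlr8, but 3880 for Sirpa against 4014 for Tlr13. With 2 libraries many genes lie this close, so the likeness is a description only.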
